A study of Mus musculus with 2 samples.

Results

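Oxidative phosphorylation genes were chosen by symbol from the annotation of the array's probes: every gene whose symbol starts with Nduf, Uqcr, Cox4 to Cox8 or Atp5, or is Sdha, Sdhb, Sdhc or Sdhd. The rule found 85 genes, read by 107 probes, of 16593 genes with a symbol and 25697 probes in all. They comprise 33 subunits of complex I, 3 of complex II, 8 of complex III, 18 of complex IV and 16 of complex V, 5 assembly factors of complex I, the supercomplex factor Cox7a2l and the annotated pseudogene Ndufs5-ps. Sdha is not analysed here, nor are the subunits encoded by the mitochondrial genome.

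RNA came from dental epithelial stem cells, the progenitors in the labial cervical loop of the mouse incisor that renew the enamel-forming epithelium. The control genotype was Med1 fl/fl, and the knockout genotype was Med1 fl/fl with a Krt14 driven Cre, both C57/BL6 and 3 months old, so the controls carry the loxP-flanked allele too. The keratin 14 promoter restricts recombination to epithelium that uses it, and any other cell in a culture would keep Med1. Cells of 3 mice per genotype were plated sparsely and grown for 7 days, without passage, with EGF and FGF. There was 1 array for each genotype, read here as a pool of the 3 mice, so no value has a replicate error, no test between genotypes was possible, and the number of arrays limits the precision. The position on the chip differed with genotype and cannot be told apart from it.

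The respiratory chain sits in the inner mitochondrial membrane. Complex I takes electrons from NADH and complex II from succinate, both pass them through ubiquinone to complex III, and cytochrome c carries them on to complex IV, which reduces oxygen. Complexes I, III and IV pump protons, and complex V, the ATP synthase, makes ATP as the protons return. Most subunits are encoded in the nucleus, and NRF1, GABP, YY1 and the PGC-1 coactivators are the best known activators of their genes. Med1, a subunit of the Mediator complex, is known as a contact of nuclear receptors and of PGC-1 alpha.

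The targeted gene read lower on the knockout array: the brightest Med1 probe had a signal of 914 in control and 412 in knockout cells, and the only other detected probe 273 and 251. The sources used here do not say whether these probes lie within the deletion. The epithelial label held on both arrays, with Krt14 at a signal of 38349 and 36803 and 5 of 5 measured epithelial markers detected on each, while Krt5 was 22154 and 10164. Of 4 measured markers of dental epithelial stem cells, Bmi1, Sox2 and Isl1 were detected on both arrays and Lgr5 on neither. Of 9 measured mesenchymal markers, 1 was detected in the control and 6 in the knockout, and their summed signal was 2566 and 6545. Col1a2, Pdgfra and Pdgfrb were not detected on either. Summed signals were 968 and 1181 for 5 skeletal muscle markers (Ckm, Des and Myh4 undetected), 851 and 967 for 5 immune markers (4 undetected), and 742 and 724 for 4 endothelial markers, none of them detected. Xist was detected on the knockout array only, and the Y-linked gene Eif2s3y had a signal of 2472 and 888, so the sexes of the mice differ between the pools to an unknown degree. The part of cell mixture and sex in the differences below was not tested, and in bulk RNA fewer cells of a type and less RNA per cell cannot be told apart.

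Most oxidative phosphorylation genes read nearly the same on both arrays. Of the 85, 77 were detected (detection p-value under 0.01) on at least 1 array, 75 of these on both. The difference of normalized log2 intensity, knockout minus control, had a median of 0.06 over the 77, against -0.06 over all 8217 detected genes, and its interquartile range ran from -0.06 to 0.26, against -0.41 to 0.30. Of the 77, 69 (89.6%) differed by less than 1.5-fold, against 69.0% of all detected genes. These shares are not matched for brightness, with which the size of difference went, as given below. A mean log2 intensity of 12 or more was found for 52 of the 77 members but 1029 of the 8217 genes. By a rule of 2-fold, 4 members were higher in the knockout, the subunits Cox4i2, Cox7a1, Cox6b2 and Atp5e, against 8.35% of all detected genes. Without background correction, and with the authors' deposited normalized values, Cox4i2 alone was past 2-fold, and Cox6b2 (1.89-fold without correction), Atp5e (1.87-fold) and Cox7a1 (1.36-fold) were not. None was at least 2-fold lower, against 6.52%. At 1.5-fold, Sdhd and Cox7a2 joined the higher members, making 6 (14.6% of all detected genes), and Ndufb10 and Ndufaf3 were the 2 lower ones (16.4% of all detected genes). With 1 array a genotype these counts follow a rule of size and are no test.

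**Figure D1:**
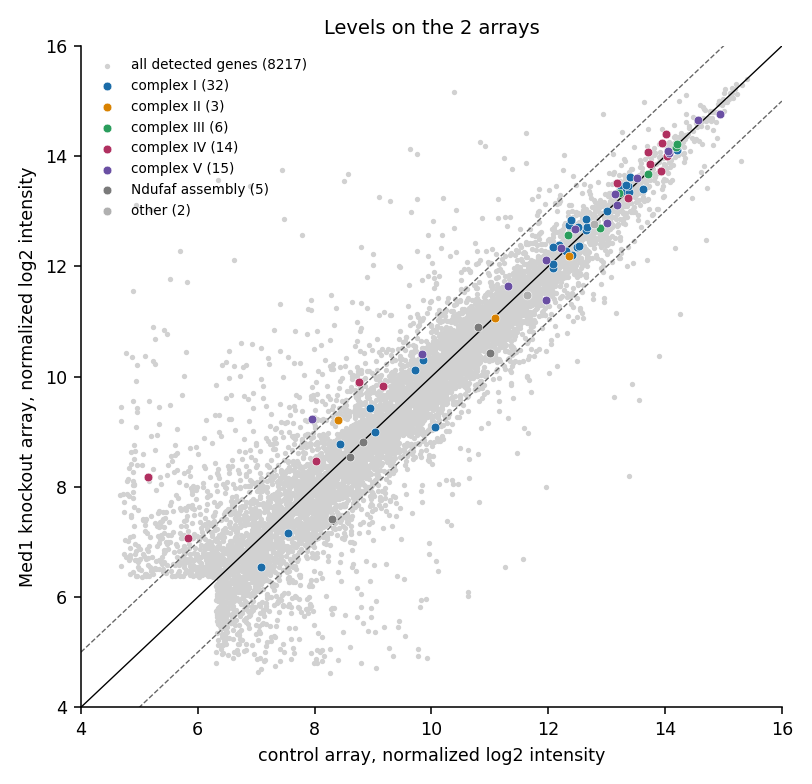
Normalized log2 intensity on the control array (x) and the Med1 knockout array (y), 1 point per gene by its brightest probe. Grey points are the 8217 detected genes and coloured points the 77 detected members. The solid line marks equal values and the dashed lines 2-fold differences. Most members lie close to the solid line in the upper right, and Cox4i2 stands farthest above it.

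Size of difference went with brightness. All 52 members with a mean log2 intensity of 12 or more differed by less than 1.5-fold (range -0.22 to 0.45), as did the 8 members between 10 and 12. Of the 17 dimmer members, 9 (52.9%) differed by less than 1.5-fold and 4 passed 2-fold. The same gradient held over all detected genes, where 85.6% of 1029 genes at 12 or more, 80.4% of 2347 between 10 and 12 and 59.9% of 4841 dimmer genes stayed within 1.5-fold. The highest signal of any probe was 42391 in control and 44382 in knockout cells, and the brightest member probe, that of Atp5b, read 30784 and 28622. The scaling mattered for the sign of small differences: 45 of 77 members (58.4%) were above 0 after quantile normalization, 56 (72.7%) after median scaling and 53 (68.8%) with no normalization between arrays. The shares of all detected genes above 0 were 44.2%, 44.0% and 40.8% under these scalings.

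**Figure D2:**
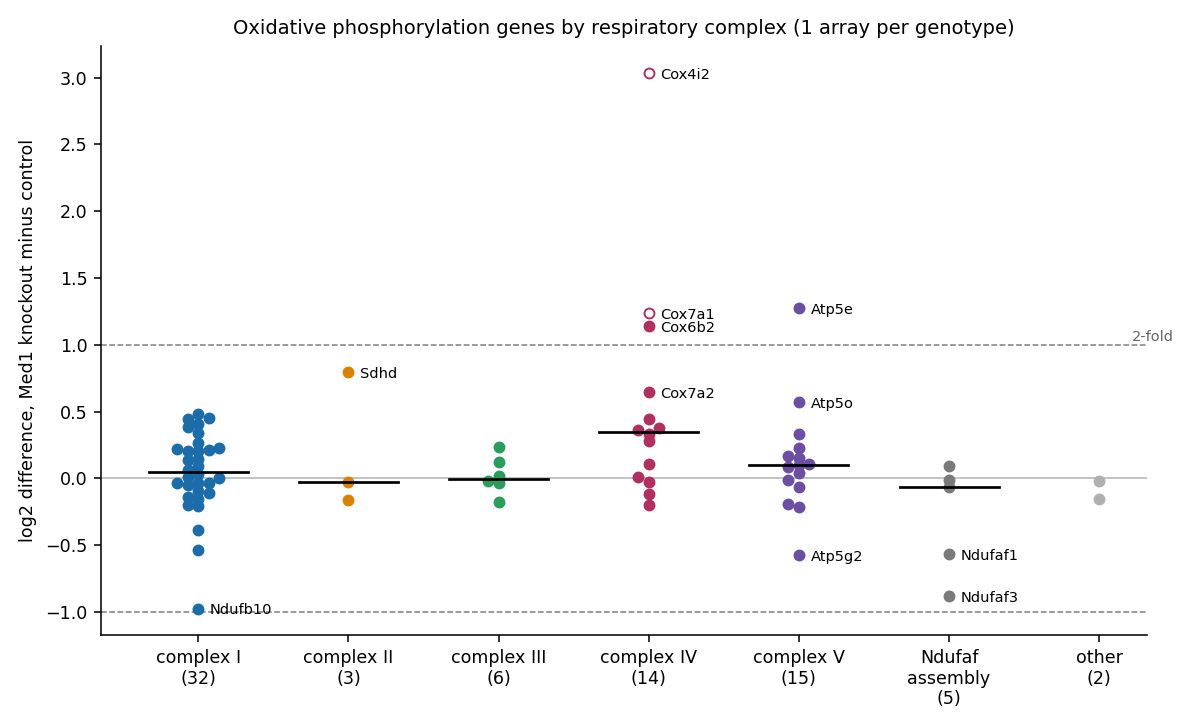
Log2 difference, Med1 knockout minus control, of each detected member by complex, with the number of members in brackets. Filled points were detected on both arrays and open points on the knockout array only. The short black lines are medians, which lie between -0.06 and 0.35, and the dashed lines mark 2-fold. Complex IV holds 3 of the 4 points above the upper dashed line.

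Complex I, NADH dehydrogenase, had 32 of 33 measured subunits detected, all on both arrays, with a median log2 difference of 0.05 and a range of -0.98 to 0.48. None passed 2-fold in either direction. The 5 detected core subunits stayed within -0.15 to 0.22. Ndufv1, the subunit that accepts electrons from NADH, had a signal of 6048 in control and 5544 in knockout cells (log2 difference -0.15). Its neighbour Ndufv2 read 6471 and 7798 (0.22). These catalytic neighbours thus lay on opposite sides of 0, with differences smaller than the between-probe standard deviation of 0.31 over all genes, described below. The difference of Ndufv2 was slightly larger than the 0.20 found over 12 members. Ndufs7, which carries the last cluster before ubiquinone, read 5935 and 6944 (0.20), Ndufs3 4461 and 4416 (-0.03) and Ndufs8 5181 and 5172 (-0.03). The core subunit Ndufs1 was not well above background on either array, with signals of 166 and 167.

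Among the 27 accessory subunits of complex I, 17 (63.0%) were above 0 and 10 below, against 44.2% of all detected genes above 0. The brightest probe among them, that of Ndufa13, read 18233 in control and 18592 in knockout cells, a log2 difference of -0.10 after normalization. The lowest difference belonged to Ndufb10, a subunit of the membrane arm, with signals of 1257 and 687 (-0.98, or 1.97-fold lower). It lay just inside the 2-fold limit, and was -1.02 after median scaling and -0.81 without background correction. Ndufab1, the mitochondrial acyl carrier protein, read 297 and 251 (-0.54, and -0.22 without background correction). Ndufb11 read 352 and 298 (-0.39). These were the 3 lowest of the accessory subunits, and Ndufab1 and Ndufb11 were dim on both arrays.

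At the other end of complex I stood several small subunits of the membrane arm. Ndufb2 had a signal of 667 in control and 830 in knockout cells (log2 difference 0.48), Ndufb5 1106 and 1395 (0.45), and Ndufb9 1029 and 1247 (0.41). Ndufv3 and Ndufs4, accessory subunits of the NADH-oxidising arm, were each higher by every detected probe. Ndufv3 read 5471 and 7631 by its brightest probe (0.45), and its 3 detected probes ran from 0.42 to 0.86. Ndufs4, loss of which causes mitochondrial encephalopathy in mice, read 5335 and 7146 (0.38), and its 4 detected probes ran from 0.38 to 0.74. The remaining accessory subunits, 19 in all, lay between -0.21 for Ndufa1 and 0.34 for Ndufb4.

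The assembly factors of complex I are proteins that build the complex and do not stay in it. All 5 with the Ndufaf prefix were detected on both arrays, with a median log2 difference of -0.06. Of the 5, 4 were below 0 and 1 (20%) above, against 44.2% of all detected genes above 0. Ndufaf3 had a signal of 485 in control and 325 in knockout cells (-0.88, and -0.52 without background correction). Ndufaf1, which works in the early membrane arm, read 2241 and 1513 (-0.57). Ndufaf7 (559 and 518, -0.06), Ndufaf5 (622 and 597, -0.01) and Ndufaf4 (1974 and 2034, 0.09) differed by less than the between-probe standard deviation.

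Complex II, succinate dehydrogenase, links the chain to the tricarboxylic acid cycle and was represented by 3 genes. The membrane anchor Sdhd read 509 in control and 735 in knockout cells, a log2 difference of 0.80 or 1.74-fold (0.59 without background correction). The other anchor, Sdhc, read 5334 and 4903 (-0.16), and the iron-sulfur subunit Sdhb 2356 and 2250 (-0.02). The 3 genes had a median of -0.02, and Sdhc and Sdhb differed by less than the between-probe standard deviation.

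Complex III, the cytochrome bc1 complex, had 6 of 8 subunits detected, all on both arrays, with differences from -0.18 to 0.23 and 3 on each side of 0. The median was -0.0033, and 0.16 after median scaling, when 5 of the 6 were above 0. The core proteins Uqcrc1 and Uqcrc2 read 7513 and 6936 (-0.18) and 9398 and 10746 (0.12). The hinge protein Uqcrh read 18263 and 20118 (0.02), Uqcr10 18137 and 19426 (-0.02), Uqcr11 13044 and 13732 (-0.04) and Uqcrb 5273 and 6297 (0.23). Signals of the probe for Uqcrfs1, the Rieske iron-sulfur protein, were 181 and 223 and not well above background on either array. The same held for Uqcrq at 176 and 167.

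Complex IV, cytochrome c oxidase, had the widest range of log2 differences, from -0.20 to 3.04. The top value was that of Cox4i2, detected on the knockout array only. Several nuclear subunits of complex IV exist as a widely expressed form and as a form known mainly from muscle, testis or lung. Of its 18 measured genes, 14 were detected, 11 of these (78.6%) were above 0, and the median log2 difference was 0.35. Cox4i2 and Cox7a1, among the 11, were detected in the knockout alone, so their sign follows from the filter. Of the 11 widely expressed forms, 8 (72.7%) were above 0, against 44.2% of all detected genes. The median of these forms was 0.28, and their range, -0.20 to 0.64, was narrower than that of complex I or V. Bright members stood among the higher ones. Ndufa4, named for complex I and now known as a complex IV subunit, read 15933 in control and 22300 in knockout cells (0.38). Cox7c read 13056 and 18160 (0.36), Cox6c 9202 and 12040 (0.34) and Cox4i1 15079 and 20158 (0.28). Cox7a2, the widely expressed form of subunit VIIa, read 754 and 1034 (0.64, or 1.56-fold), and Cox7b read 427 and 503 (0.45). The other widely expressed subunits stayed closer to 0. They were Cox6a1 (13205 and 15810, 0.11), Cox6b1 (16419 and 18005, 0.01), Cox8a (16168 and 17533, -0.03), Cox5a (10386 and 10173, -0.12) and Cox5b (14948 and 14411, -0.20).

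Of the 7 measured restricted forms of complex IV, Cox6b2 was detected on both arrays, Cox4i2 and Cox7a1 in the knockout alone, and 4 on neither. A form detected in the knockout alone passed the filter only where it was high, so its direction follows from the filter. Cox4i2, the form of subunit IV known from lung and induced by low oxygen in other cells, had a signal of 183 in control cells, not well above background, and 439 in knockout cells. On the background-corrected scale it was at least 3.69-fold higher, taking the lowest detected level of the control array as the bound. This bound and those below hold on that scale only, and without the correction, with background left in both signals, Cox4i2 was 2.44-fold higher. Its partner form Cox4i1 differed by 0.28. Cox6b2, the testis form of subunit VIb, read 602 and 1089 (1.14, or 2.21-fold, and 1.89-fold without background correction), while Cox6b1 differed by 0.01. A second Cox6b2 probe was detected on neither array, at 192 and 218. Cox7a1, the heart and muscle form of subunit VIIa, read 213, not well above background, and 289. After background correction it was 2.36-fold higher by its normalized values and at least 1.70-fold by the bound. Without the correction it was 1.36-fold higher, so it passed 2-fold by the normalized values only. Signals of Cox6a2, Cox7b2, Cox8b and Cox8c lay between 149 and 178 on both arrays. Of 5 muscle markers, 2 were detected and 3 were not. Tnni2, detected on both arrays, read 298 and 425 (1.01, or 1.47-fold without background correction). Acta1, seen in the knockout alone, read 190 and 249, at least 1.16-fold higher after background correction. Of 9 mesenchymal markers, 3 were detected on neither array. Thy1, with the largest difference of the 9, was seen in the knockout alone, at 187 and 1375. The direction of Acta1 and Thy1 follows from the filter. The part of muscle and mesenchymal cells in the values of the restricted forms was not tested.

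**Figure D3:**
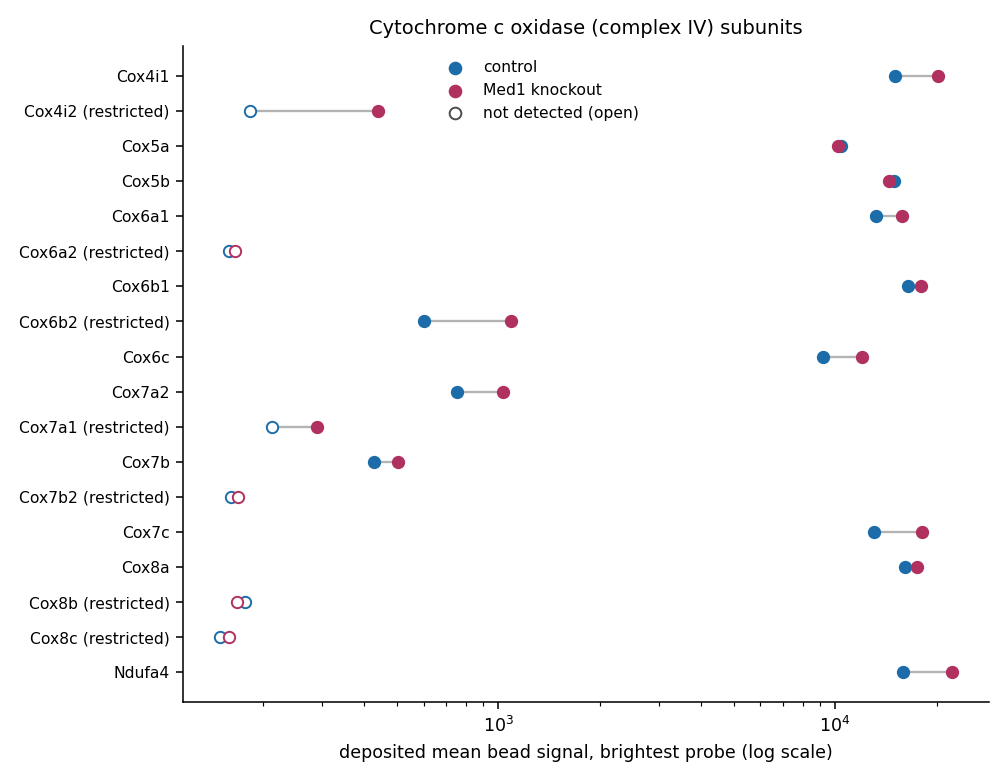
Deposited mean bead signal (log axis) of the brightest probe of each complex IV gene on the control array (blue) and the Med1 knockout array (red). Open points were not detected on that array, and restricted marks forms known mainly from few tissues. Signals of different probes depend on the probe, so only the 2 points of a row can be compared: they lie apart for Cox4i2, from 183 to 439, and nearly coincide for Cox5a.

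Promoters are shown for pairs of complex IV forms in which both members were detected, since their differences from 0 were unequal. Those of Cox4i1 and Cox4i2 are not shown. Each line gives the 250 bases before the annotated start, on the gene's strand, from RefSeq on GRCm38.p6: Cox6b1 (chr7:30626115-30626364, minus strand), Cox6b2 (chr7:4753095-4753344, minus), Cox7a2 (chr9:79759854-79760103, minus) and Cox7a1 (chr7:30183921-30184170, plus). Cox6a1 (chr5:115348959-115349208, minus) is added as a member that holds motifs of both NRF1 and GABP. Capitals mark a match to the motifs listed after the sequences.
Cox6b1: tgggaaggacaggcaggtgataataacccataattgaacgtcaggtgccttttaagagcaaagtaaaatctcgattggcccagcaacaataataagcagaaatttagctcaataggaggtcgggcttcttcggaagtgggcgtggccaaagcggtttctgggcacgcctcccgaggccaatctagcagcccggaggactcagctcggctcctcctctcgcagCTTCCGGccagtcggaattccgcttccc
Cox6b2: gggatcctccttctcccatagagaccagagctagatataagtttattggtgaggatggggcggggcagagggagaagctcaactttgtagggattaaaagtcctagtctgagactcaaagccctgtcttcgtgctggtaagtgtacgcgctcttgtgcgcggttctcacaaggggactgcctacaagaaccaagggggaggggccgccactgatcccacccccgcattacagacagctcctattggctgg
Cox7a2: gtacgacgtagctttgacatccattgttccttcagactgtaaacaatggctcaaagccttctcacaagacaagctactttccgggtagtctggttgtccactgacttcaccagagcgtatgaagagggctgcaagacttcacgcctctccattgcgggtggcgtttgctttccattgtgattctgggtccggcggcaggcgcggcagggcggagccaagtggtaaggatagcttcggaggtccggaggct
Cox7a1: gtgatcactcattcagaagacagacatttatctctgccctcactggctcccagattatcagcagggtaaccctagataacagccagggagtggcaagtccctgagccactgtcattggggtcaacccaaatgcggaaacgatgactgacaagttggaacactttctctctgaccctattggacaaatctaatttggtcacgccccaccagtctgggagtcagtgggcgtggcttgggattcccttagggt
Cox6a1: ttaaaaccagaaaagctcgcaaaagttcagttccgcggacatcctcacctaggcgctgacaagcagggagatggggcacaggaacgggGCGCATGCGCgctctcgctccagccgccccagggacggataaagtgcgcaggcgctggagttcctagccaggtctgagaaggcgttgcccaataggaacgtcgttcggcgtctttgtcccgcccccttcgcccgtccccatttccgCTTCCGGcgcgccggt

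The motifs searched on both strands were GCGCATGC for NRF1, CCGGAAG for GABP, AAGATGG for YY1 and TGACGTCA for CREB. Promoters were found for 70 of the 85 members. GABP's motif was in 13 of the 70 (18.6%), against 7.83% of the 27025 genes with a promoter in the table, and NRF1's in 8 (11.4%), against 2.56%. The NRF1 motif was shortened after counts of a longer one were seen, so its share was not fixed in advance. CREB's was in 3 (4.29%, against 1.77%) and YY1's in 1 (1.43%, against 5.18%). The 13 with GABP's motif included members on both sides of 0, from Ndufaf1 at -0.57 to Atp5e at 1.28. NRF1's stood before Atp5k, which was not detected, and before 7 detected members, from Atp5g2 at -0.57 to Ndufa6 at 0.20. Cox6a1 and Atp5l held both. Among the 4 paired forms printed, Cox6b1 alone held a match. A match is a run of letters and not a bound site, and its absence from this window says nothing about the factor.

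Complex V, the ATP synthase, had 15 of 16 genes detected, all on both arrays, with a median log2 difference of 0.10. Of the 15, 10 (66.7%) were above 0, against 44.2% of all detected genes. The count was 12 after median scaling and also with no normalization between arrays. In the F1 head, which makes ATP, the epsilon subunit Atp5e was the one member of the complex past 2-fold, with a signal of 417 in control and 749 in knockout cells (1.28, or 2.42-fold). Without background correction it was 0.90, under 2-fold. Its partners in the head differed less. The alpha subunit Atp5a1 read 2726 and 3331 (0.33), beta (Atp5b) 30784 and 28622 (-0.19), gamma (Atp5c1) 9025 and 10604 (0.16) and delta (Atp5d) 5722 and 6775 (0.23). The head subunits of one machine thus ranged from -0.19 to 1.28.

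The proton-carrying c ring is encoded by 3 genes whose mature proteins are identical, and they did not read alike. Atp5g2 had a signal of 4144 in control and 2805 in knockout cells (log2 difference -0.57, or 1.49-fold lower). Atp5g1 read 8018 and 7339 (-0.22), and Atp5g3 24055 and 27026 (0.10). In the stalks and membrane part, Atp5o, the protein that joins the outer stalk to the head, read 1101 and 1498 (0.57, or 1.49-fold). The other 6 detected genes there lay between -0.06 for Atp5l and 0.15 for Atp5pb. Atp5k, the e subunit, was not well above background, at 159 and 160.

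The 2 members that are no subunit were close to 0. Cox7a2l, a factor known from supercomplexes of complexes III and IV, read 7073 and 7243 (-0.02). The probe assigned to the pseudogene Ndufs5-ps read 3340 and 2967 (-0.15). RefSeq also lists pseudogenes of Atp5k, Atp5l, Uqcrh, Cox5b, Cox7c and Ndufab1, and whether the probes bind their RNA was not tested. Of the members, 3 are X-linked in RefSeq, and they lay on both sides of 0: Cox7b (0.45), Ndufa1 (-0.21) and Ndufb11 (-0.39).

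Probes of the same gene give the only measure of error in these data. Between probes of a gene that were detected on both arrays, the standard deviation of the log2 difference was 0.31 over 1830 genes, and 0.20 over 12 members. As every probe of a gene was hybridised with the same RNA, this error is technical and holds nothing of the spread between mice or cultures. Of 107 member probes, 89 were detected on both arrays, 4 on 1 and 14 on neither. Several detected probes were available for 13 members, and 10 of these kept 1 sign over all of them, with a median range of 0.16. The exceptions were Ndufb6 (-0.03 by its brightest probe and 0.74 by a dimmer one), Atp5j (0.09 and -0.42) and Ndufa5 (-0.14 and 0.10). Cox4i2, Cox6b2, Cox7a1, Atp5e, Sdhd, Cox7a2, Ndufb10 and Ndufaf3, the 8 members past 1.5-fold, each rested on a single detected probe.

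**Figure D4:**
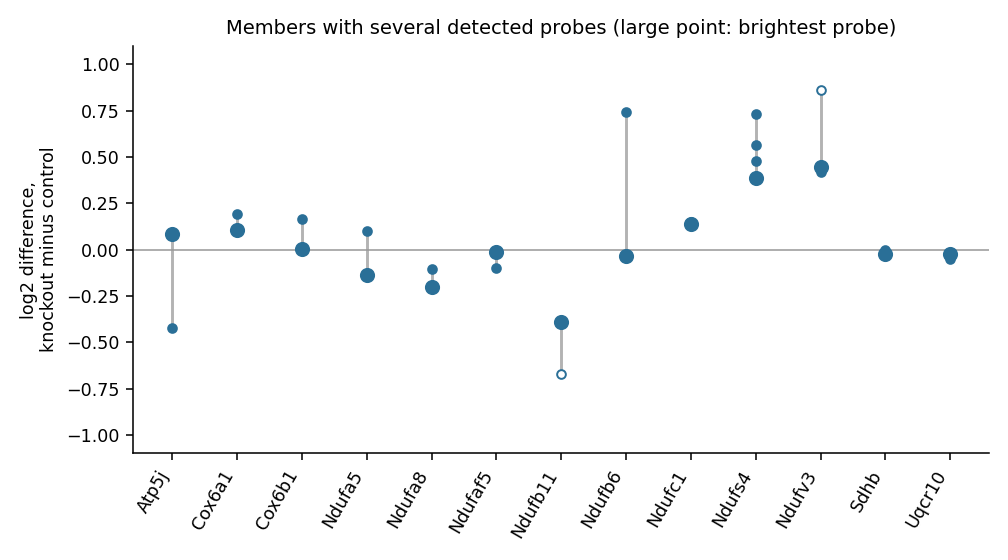
Log2 difference, knockout minus control, of every detected probe of the 13 members with several. The large point is the brightest probe, filled points were detected on both arrays and open points on 1, and grey lines join the probes of a gene. All 4 probes of Ndufs4 lie above 0, and the widest gap, 0.78, is that of Ndufb6.

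The rest of the mitochondrial machinery was described with fixed lists. Among assembly factors outside the symbol rule, 31 of 37 measured were detected, none passed 2-fold and the median log2 difference was 0.0039. Cox20, a chaperone of complex IV, read 1345 in control and 885 in knockout cells (-0.63). The complex II factor Sdhaf4 read 3640 and 2464 (-0.57), the copper-handling Cox11 372 and 452 (0.56), and Bcs1l, which inserts the Rieske protein, 1325 and 940 (-0.50). Electron carriers and related enzymes (16 of 20 detected, median 0.10) also held none past 2-fold. The electron transfer flavoprotein subunit Etfb read 4606 and 7232 (0.63) and its oxidoreductase Etfdh 2235 and 1548 (-0.53). The other flavoprotein subunit, Etfa, added after its value was seen, read 11550 and 10669 (-0.17), on the same side of 0 as Etfdh. Gpd2, the glycerol phosphate shuttle enzyme, read 1337 and 1883 (0.60), and Coq3, of ubiquinone synthesis, was seen in the knockout alone (at least 1.16-fold higher, or 1.14-fold without background correction). Cyc1 and Cycs, cytochromes c1 and c, were added after their values were seen, at 0.24 and 0.15.

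Genes that feed the chain gave a median log2 difference of -0.0090 over 21 of 23 tricarboxylic acid cycle and pyruvate dehydrogenase genes detected, and 1 gene passed 2-fold in each direction, or only the lower one when bounds were used. Dlat, the acetyltransferase of pyruvate dehydrogenase, read 724 in control and 355 in knockout cells (-1.43, or 2.70-fold lower, and 1.96-fold without background correction). Pdk4, a kinase that turns this enzyme off, was seen in the knockout alone and was at least 1.55-fold higher, or 1.36-fold without background correction. Its relative Pdk1 read 2242 and 1413 (-0.68), and the cycle enzyme subunit Idh3a 1530 and 1068 (-0.53). Mitochondrial ribosomal proteins (70 of 76 detected, median 0.06) were spread like the respiratory subunits, with 66 of 70 within 1.5-fold. Their largest differences were those of Mrps27 (267 and 512, 1.75, and 0.97 without background correction), Mrpl9 (1059 and 2063, 1.15), Mrpl49 (2120 and 1167, -0.90) and Mrps10 (900 and 1412, 0.82). Import, carrier and chaperone genes (18 of 23 detected, median 0.10) held none past 2-fold. The import pore Tomm40 was likewise seen in the knockout alone (at least 1.21-fold higher, or 1.16-fold without background correction), the fusion protein Mfn1 was at -0.46, the import receptor Tomm70a at 0.43 and the porin Vdac2 at -0.40.

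Among regulators of mitochondrial gene expression, 18 of 23 were detected, with Med1 itself among them, and the median log2 difference was -0.31. Of the 18, 14 were below 0 and 4 (22.2%) above, against 44.2% of all detected genes above 0. The 14 include Med1, the targeted gene, and Tfb1m and Mterf2, which were detected on the control array only. The direction of these genes was set in advance, so the share and the median are no result about regulators. Tfb1m, which methylates mitochondrial ribosomal RNA, had a signal of 375 in control and 215, not well above background, in knockout cells, at least 2.54-fold lower after background correction and 1.72-fold without it. Mterf2, a factor bound to mitochondrial DNA, was detected on the control array only (at least 1.09-fold lower, or 1.25-fold without background correction). Tfb1m and Mterf2 passed the filter through the control array only, so their direction follows from the filter. Gabpb1, a subunit of GABP, read 463 and 739 (1.01, or 2.02-fold higher, and 1.66-fold without background correction). With bounds for genes seen on 1 array, the median was -0.21, and 1 gene, Gabpb1, was past 2-fold upward. The 2 past it downward were Med1, the targeted gene, and Tfb1m. Over all 8217 detected genes these counts with bounds were 564 and 409. Without bounds the shares of all detected genes were 8.35% and 6.52%. Further regulators, added after their values were seen for their known roles, were Nrf1 (1104 and 874, -0.32), the GABP subunit Gabpa (286 and 337, 0.55), the mitochondrial DNA-binding factor Tfam (1460 and 1390, -0.02), the mitochondrial RNA polymerase Polrmt (2326 and 1628, -0.52) and Esrra (2046 and 2206, 0.17). Ppargc1a, which encodes PGC-1 alpha, and Yy1 were not well above background on either array.

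**Figure D5:**
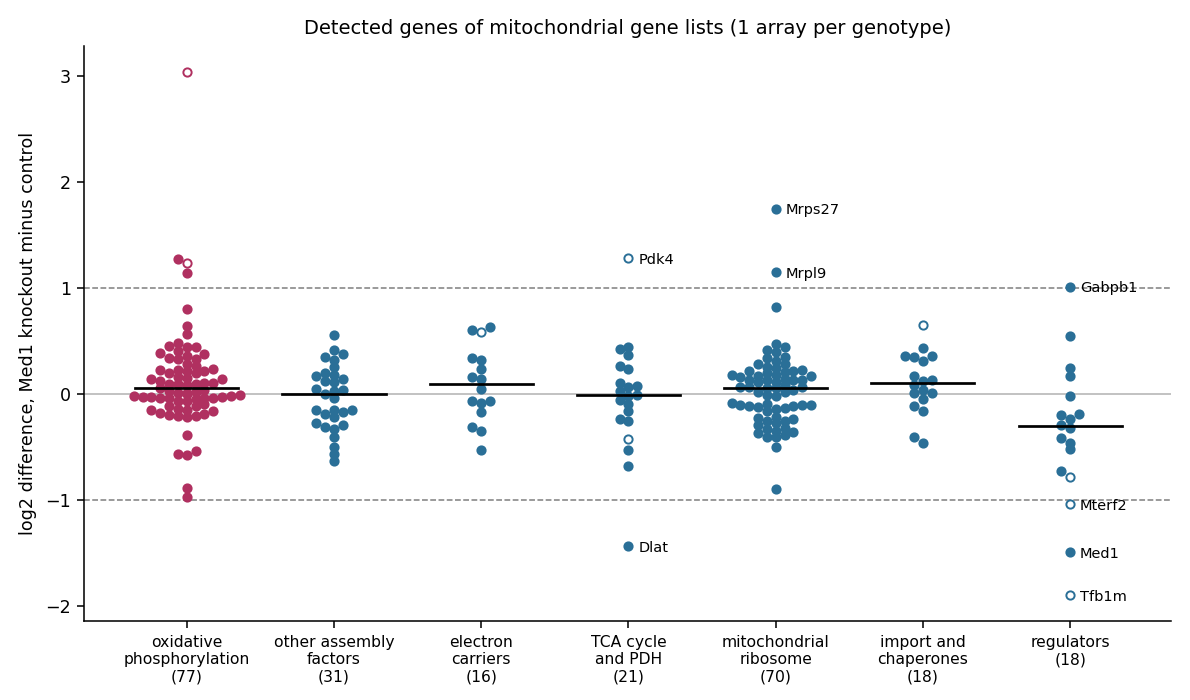
Log2 difference, knockout minus control, of the detected genes in each mitochondrial list, with the number detected in brackets and the members in red. Open points were detected on 1 array only, black lines are medians and dashed lines mark 2-fold. The medians lie between -0.01 and 0.10 except for the regulators, Med1 among them, at -0.31.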

How the data were processed

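Each genotype had 1 Illumina bead array on a shared chip, with biotin-labelled product read by Cy3-streptavidin, per the labels' protocols. Values used were the average signal of each probe, an intensity that the authors deposited without normalization between arrays, and its detection p-value, per the file headers. The submitters' processing notes name GenomeStudio 2011.1. A second deposited table, of intensities that share nearly 1 distribution, was an alternative. The sources used here do not give the method behind it.

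Signals were background-corrected by normexp, with the negative control moments inferred from the detection p-values, offset by 16, quantile normalized and put on the log2 scale (neqc in limma 3.58.1, R 4.3.3). The platform annotation gave 1 symbol for 23978 of 25697 probes, several for 0 and no symbol for 1719. Median signals were 205 and 207, and 43.1% and 42.6% of probes were detected at p under 0.01. A gene was represented by its brightest probe. For a gene detected on 1 array, the bound, on the background-corrected scale, takes the dim side as the higher of its own value and the lowest detected level there (log2 6.30 for control and 6.37 for knockout).

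Members and lists were chosen with earlier results of these data known. Values are given for members past 1.5-fold, the brightest and the 3 largest differences per complex, and up to 4 genes per other list. The procedure was tested on simulated data, with changes placed only in probes well above background. Its pass rule did not cover changes of 2-fold, so it says nothing of members near background or at that limit. With 1 array a genotype no test was run. Ndufa4 was counted in complex IV. The NRF1 motif was shortened from a longer palindrome after its counts were seen. Alternatives were other background corrections, offsets, scalings, filters, probe summaries, thresholds and list means. Bounds and complex IV without restricted forms were added after the data were seen.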

Additional observations from a re-analysis of the deposited data

How the results depend on the processing

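The median differences of the members, each complex, the assembly factors and the other lists moved by under 0.31, the standard deviation between probes of a gene, under every alternative run, and the members' median ran from 0.04 (detected on both arrays) to 0.17 (median scaling). The 4 members at least 2-fold higher became 1 without background correction and 1 with the deposited values, Cox4i2 in each case, and 2 when detection on both arrays was required, which leaves out Cox4i2 and Cox7a1 by construction. They numbered 3 with bounds. The count of members at least 2-fold lower went from 0 to 1, Ndufb10, under median scaling and with no normalization between arrays, and to 2 at 1.5-fold. Without background correction Cox4i2 differed by 1.28 and Cox7a1 by 0.45. Of 539 single-member values under alternatives, 15 moved by more than 0.31. Changes of sign were counted only for the 4 members past 2-fold, and there were 0. Every alternative used the same 2 arrays, so a change of sign there was hardly possible and its absence shows little. No paired analysis was possible because there is 1 array per genotype. Probes near background limit what can be said of the 8 undetected members.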
